A study of Mus musculus with 10 samples.

Results

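The Nrf2 coefficient is the log2 difference between Nrf2-absent and Nrf2-present spleen erythroblasts after the average effect of the miR-144/451 cluster has been removed, and it was estimated for each of 14110 genes from all 10 mouse RNA-seq libraries of the series. Erythroblasts, the nucleated precursors of red cells, were isolated from spleens of C57BL/6 mice 11 days after 5-FU (5-fluorouracil), a drug that kills dividing marrow cells and forces red cell production to start again. The 6 Nrf2-absent libraries were 3 from Nrf2-/- mice, which keep the cluster, and 3 from mice lacking both Nrf2 and miR-144/451. The 4 Nrf2-present libraries were 2 from wild-type mice and 2 from miR-144/451-/- mice, numbered 1 and 3 in the labels. The labels give no age, sex, allele or animal number for any group. They do not say that libraries of a genotype came from separate animals, so the spread behind each p-value is that between libraries and may be technical.

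Nrf2, encoded by Nfe2l2, is a transcription factor that is held low by its inhibitor Keap1 and that, with a small Maf partner, turns on genes for glutathione, thioredoxin, NADPH and quinone metabolism when cells meet oxidants. It binds the antioxidant response element, whose core overlaps the site used by AP-1 and NF-E2 factors. miR-144 and miR-451 are made from one precursor in red cell precursors and restrain, among others, genes of stress and survival pathways. Erythroblasts carry a heavy oxidant load from iron, heme and hemoglobin, which is why this pathway has been studied in them.

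Library totals lay between 13087827 and 15131036 counts, and globin transcripts took 7.07% to 12.2% of each. The erythroblast markers Slc4a1, Alas2 and the adult globins were among the most abundant genes in every genotype. These markers cannot show how pure the erythroblasts were, and markers of other cell types were counted too (below). Xist and Y-linked counts placed both wild-type libraries and double-null library 3 as female and the other 7 as male. Sex is thus unequal between the arms (2 of 4 female against 1 of 6). All Nrf2-/- libraries were male, so in their contrast with wild type Nrf2 loss and sex cannot be told apart. The double-null libraries were of both sexes and so came from more than 1 animal. Mir144 had 12 and 17 counts in wild type, 9, 13 and 16 in Nrf2-/-, and 0 in all 5 libraries of the cluster-null genotypes, as their labels say. Nfe2l2 itself was still counted in every Nrf2-absent library. It stood at 58.2 and 63.5 normalised CPM (counts divided by library size after correction for library composition, on the usual CPM scale) in the wild-type pair, 81.7 and 86.1 in miR-144/451-/-, 46.1, 50.2 and 55.6 in Nrf2-/-, and 62.7, 52.7 and 49.2 in the double-null libraries. The Nrf2-absent values were low but overlapped the wild-type pair, and the coefficient of -0.44 ± 0.11 (standard error) had an adjusted p of 0.103. Counts over the whole gene cannot show which exons the transcripts held, so Nfe2l2 is no check of the Nrf2 labels in these data.

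Across all genes 64 passed an adjusted p of 0.05, which is 0.454% of those tested. Of these, 42 rose without Nrf2 (0.298%) and 22 fell (0.156%). The median coefficient was 1.57 among the genes that rose and -1.31 among those that fell, against -0.02 over all 14110 genes, and 31 and 17 of them changed at least 2-fold. In 50 of the 64 the 6 Nrf2-absent libraries did not overlap the 4 Nrf2-present ones. The call on these same libraries favours such genes, so this is no separate support. Over all genes the share was 2.35%. All 42 genes that rose and 21 of the 22 that fell had the same sign in Nrf2-/- against wild type as in double-null against miR-144/451-/-, which the call on their average largely fixes; over all genes the share was 64.5%. The exception was Ccnb1ip1, which had 38 and 76 counts in the miR-144/451-/- libraries and 0 in all others, so that its coefficient rests on a single genotype. These 2 contrasts share no library, and over all genes they correlated with Pearson's r of 0.372 and Spearman's rho of 0.41, given as a description since genes are not independent.

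**Figure D1:**
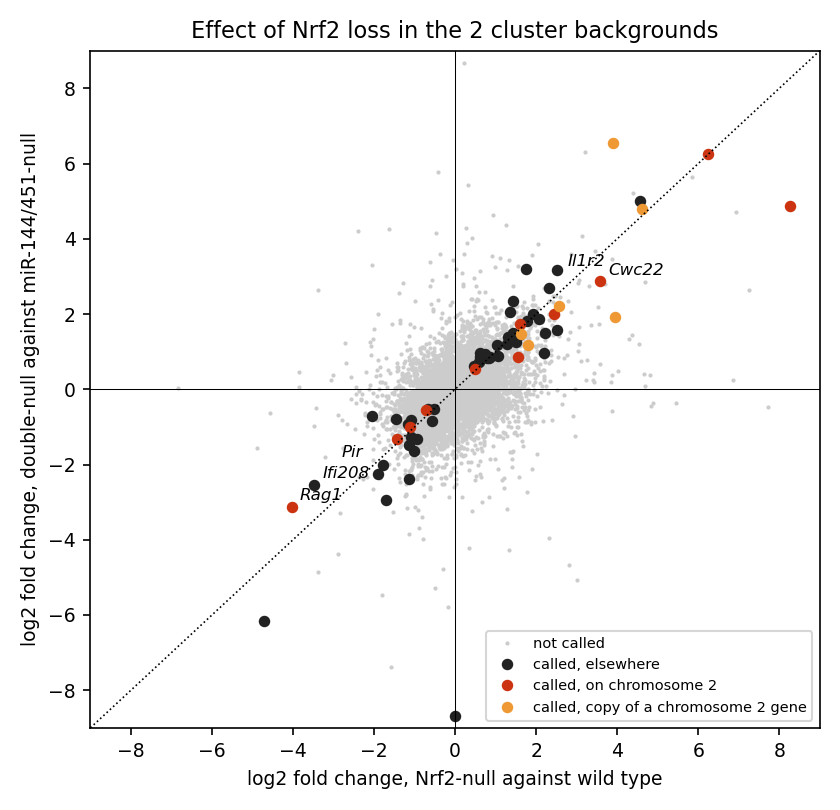
Each point is a gene; the horizontal axis is its log2 fold change in Nrf2-/- against wild type and the vertical axis that in double-null against miR-144/451-/-, with the 64 called genes coloured by place. The called genes lie on the same side of 0 in both backgrounds, which the call on their average largely fixes. The exception is Ccnb1ip1 at the foot of the plot, which lies at 0 on the horizontal axis. Some lie well off the diagonal, such as Gm13694 (8.26 against 4.87) and Lpin1 (-2.05 against -0.70). The contrast on the horizontal axis is also one of male against female libraries.

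The number of calls leaned on single libraries. It was 21 and 20 without wild-type library 1 or 3, 119 and 30 without miR-144/451-/- library 1 or 3, 40, 29 and 101 without Nrf2-/- library 1, 2 or 3, and 39 without double-null library 2. Adding sex to the model left 20 genes, 17 of them among the 64. Without library scaling the balance of the calls turned to 36 higher and 58 lower, as the median of all genes shifted to -0.18. None of the 64 genes changed sign in any of these fits.

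Pir showed the firmest loss. Pir encodes pirin, an iron-binding nuclear protein with quercetinase activity that binds NF-kappaB components, and is a known Nrf2 target (ENSMUSG00000031379, chromosome X). Its level was 27.7 and 48.8 normalised CPM in the wild-type pair, 33.6 and 24.2 in miR-144/451-/-, 11.7, 11.7 and 10.2 in Nrf2-/-, and 7.58, 7.14 and 6.63 in the double-null libraries. Every Nrf2-absent library lay below every Nrf2-present one, and the double-null libraries were the lowest. The coefficient was -1.89 ± 0.17 (adjusted p = 0.000367). With sex in the model it was -1.95 (adjusted p = 0.00189), and the call was lost only when the 7 male libraries were fitted alone, with a coefficient of -1.96 (adjusted p = 0.0765). Its direct neighbour among tested genes, the growth factor gene Vegfd, also fell, by 1.71 ± 0.32 on the log2 scale (adjusted p = 0.0422), from 3.05 to 4.89 CPM down to 0.38 to 2.76, and had an adjusted p of 0.0795 with sex in the model.

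Esd, which encodes the enzyme that hydrolyses S-formylglutathione in the disposal of formaldehyde, was the other gene of the Nrf2-related lists that fell. It stood at 57.9 and 95.4 normalised CPM in the wild-type pair, 117 and 88.7 in miR-144/451-/-, 35.5, 40.4 and 31.8 in Nrf2-/-, and 56.5, 60.0 and 59.2 in the double-null libraries. The Nrf2-/- libraries were lowest, while double-null libraries 2 and 3 lay just above wild-type library 1. The coefficient was -0.95 ± 0.14 (adjusted p = 0.0153), and -0.90 (adjusted p = 0.0632) with sex in the model.

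The genes usually named as Nrf2 targets lay mostly below 0 but few passed the test. Of 22 tested quinone, carbonyl and conjugation enzymes, Pir and Esd fell, none rose, and 18 had a coefficient below 0, with a median of -0.27. Nqo1, the quinone reductase that is the classic Nrf2 target, had 43.4, 70.2, 44.6 and 41.8 normalised CPM with Nrf2 present. Without Nrf2 it had 32.8, 36.8 and 38.7 in Nrf2-/- and 27.2 to 30.01 in double-null cells. The groups did not overlap, yet the coefficient of -0.62 ± 0.13 had an adjusted p of 0.0579. Osgin1, which encodes an oxidative stress growth inhibitor, stood on the other side of the list with 1.41 ± 0.30 (adjusted p = 0.0735).

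All 10 tested genes of NADPH supply had coefficients below 0, with a median of -0.47, and none passed the test. Rpia, the ribose-5-phosphate isomerase of the pentose phosphate pathway, was the only one whose groups did not overlap. Its range was 41.7 to 61.6 normalised CPM with Nrf2 and 31.4 to 40.5 without, with a coefficient of -0.56 ± 0.12 (adjusted p = 0.0785). G6pdx, the enzyme that opens the pathway, had -0.49 ± 0.16 (adjusted p = 0.160). Me1, the cytosolic malic enzyme, had the lowest coefficient of the list, -2.33 ± 0.54 (adjusted p = 0.0943), at no more than 1.70 CPM in any library.

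Glutathione and thioredoxin genes did not move as blocks. Of 16 glutathione genes 8 had coefficients above 0 and 8 below, with a median of 0.02 (-0.14 without library scaling) and no call. Gsr, glutathione reductase, lay closest to the threshold, at 59.9, 96.8, 75.8 and 70.5 normalised CPM with Nrf2 and 36.0 to 53.8 without, and -0.73 ± 0.14 (adjusted p = 0.050, just above the limit). Gclc and Gclm, the subunits of the enzyme that limits glutathione synthesis, had -0.12 ± 0.13 and -0.02 ± 0.12. Of 14 thioredoxin and peroxide genes none passed, with a median of -0.06. Txnrd1, thioredoxin reductase, ranged from 92.4 to 119 normalised CPM with Nrf2 and from 63.0 to 89.8 without, a coefficient of -0.53 ± 0.12 (adjusted p = 0.0944). Srxn1, which repairs over-oxidised peroxiredoxins, had a larger coefficient of -1.59 ± 0.38 (adjusted p = 0.107), with 42.1 and 111 normalised CPM in the wild-type pair, 161 and 102 in miR-144/451-/-, 18.8, 22.8 and 8.88 in Nrf2-/-, and 52.3, 87.1 and 61.4 in double-null cells. The Nrf2-/- libraries were below all others, while the double-null ones overlapped the wild-type pair.

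Heme breakdown and iron storage genes had a median of 0.02 (-0.14 without library scaling) over 9 genes with no call, and Hmox1, heme oxygenase, had 0.73 ± 0.53 (adjusted p = 0.480). Among Nrf2 itself and its partners none of 14 passed, and Keap1 had -0.22 ± 0.11 (adjusted p = 0.297). Across the 5 target lists 2 of 71 genes fell and none rose, beside 0.156% and 0.298% of all genes tested. The lists were chosen with earlier results of these data known, so these shares are a description and no test.

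**Figure D2:**
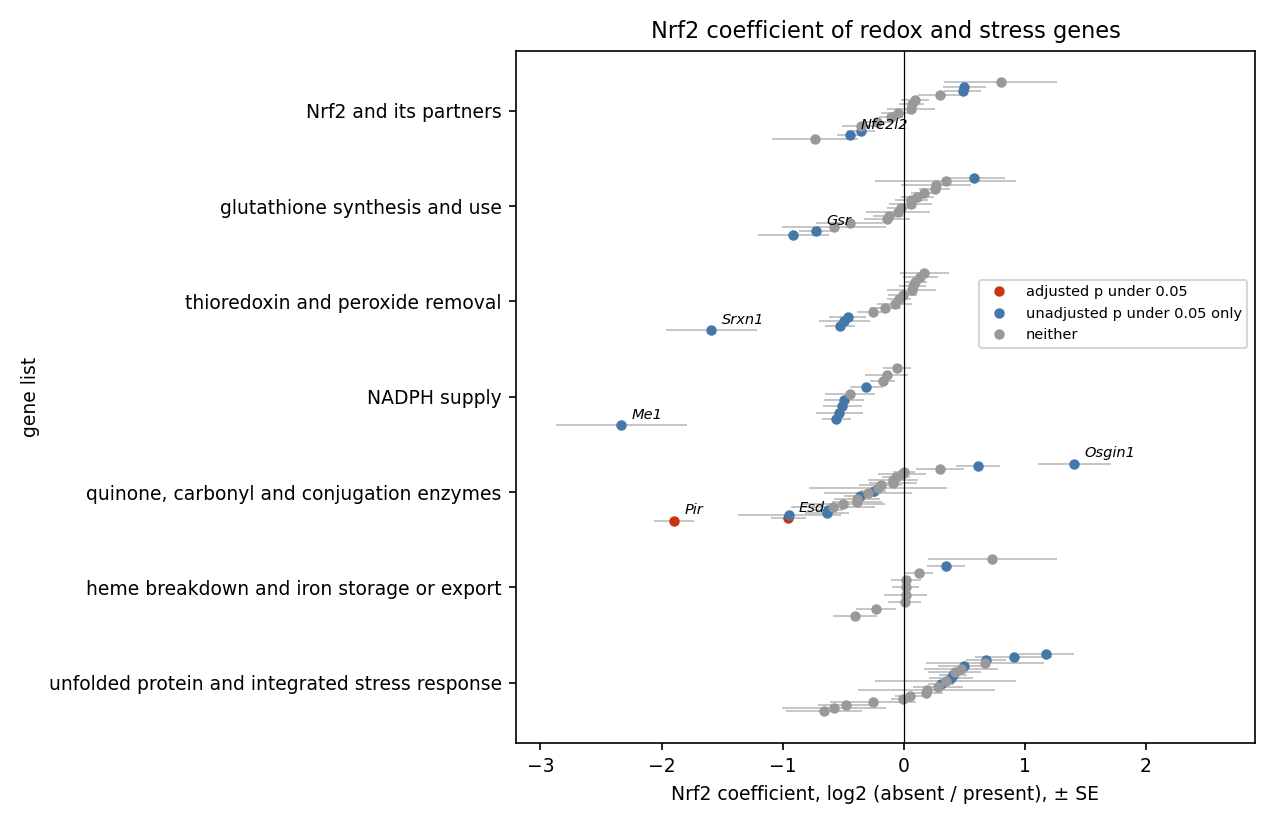
Each point is a gene with its Nrf2 coefficient on the log2 scale and its standard error, in rows by gene list; red marks an adjusted p under 0.05 and blue an unadjusted p under 0.05 only. Pir and Esd are the red points, the NADPH genes all lie left of 0, and 15 of 20 unfolded protein response genes lie right of it.

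The stretches of promoter that hold the antioxidant response core show what kind of site these genes carry. The letters TGACNNNGC were searched on both strands in RefSeq windows (GRCm38.p6) from 250 bases before to 50 after each start. The core overlaps the AP-1 motif TGAGTCA where its middle letters allow. The lines below give Pir, the called gene of the lists that has a match, and 3 target genes that did not pass, each on the gene's strand with the match and 30 bases on either side, the matching letters in capitals. A match of the other strand reads GCNNNGTCA.

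Pir, chrX:164269187-164269255, + strand: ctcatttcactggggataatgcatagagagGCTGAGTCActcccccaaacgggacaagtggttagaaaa

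Txnrd1, chr10:82859084-82859152, + strand: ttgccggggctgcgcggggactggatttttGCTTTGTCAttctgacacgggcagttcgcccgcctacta

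Prdx1, chr4:116685436-116685504, + strand: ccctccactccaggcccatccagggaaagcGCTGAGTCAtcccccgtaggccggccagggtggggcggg

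G6pdx, chrX:74428899-74428967, - strand: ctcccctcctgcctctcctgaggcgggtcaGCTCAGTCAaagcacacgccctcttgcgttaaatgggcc

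The match shown lies 214 bases before the start in Pir, which has a second one (GCGGAGTCA) 19 bases after the start, 92 in Txnrd1, 133 in Prdx1 and 57 in G6pdx. Pir and Prdx1 share the letters GCTGAGTCA, which contain TGAGTCA, while the coefficient of Prdx1, a peroxiredoxin, was -0.25 ± 0.13 against -1.89 for Pir. The share of called genes with a match lay near that of all tested genes: 3 of the 17 fallen genes with a window (17.6%: Pir, Lta and Cnp) and 3 of 20 that rose (15.0%) held one, compared with 17.1% of 9769 tested genes with a window and 12.4% of all 32851 windows. In the target lists 17 of 60 genes with a window held a match (28.3%). A gene was counted if any of its windows matched, so the share over all windows is a different measure. Txnrd1, Prdx1 and G6pdx were picked for display after their values were seen, and all had coefficients below 0. Mgst1 (0.58), Ncoa4 (0.35), Sod1 (0.10) and Blvra (0.02) of the target lists held a match too, with coefficients above 0. A match is a run of letters and no evidence of binding in these cells.

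Several other genes fell on their own. Lpin1, the phosphatidate phosphatase of triglyceride synthesis, had 43.0 and 30.1 normalised CPM in the wild-type pair, 23.9 and 33.9 in miR-144/451-/-, 9.49, 7.44 and 9.56 in Nrf2-/-, and 16.3 to 19.0 in double-null cells. The coefficient was -1.39 ± 0.25 (adjusted p = 0.0396), and the Nrf2-/- libraries were the lowest of all. Lpin1 was not called with sex in the model (-1.15, adjusted p = 0.0769) or by limma voom (adjusted p = 0.0523), and was called in 2 of the 10 fits that leave out 1 library each. Ublcp1, a phosphatase of the nuclear proteasome, fell by 1.12 ± 0.16, and wild-type libraries, at 87.6 and 104 CPM, stood above the miR-144/451-/- pair at 40.1 and 64.7. Arl5a, a small GTPase of the Golgi, fell by 1.06 ± 0.13 (adjusted p = 0.00373), from 39.5 to 50.2 CPM with Nrf2 down to 17.7 to 31.1 without. The other named genes that fell without overlap were Nmi, an interferon-regulated partner of Myc and STAT proteins (-1.37), the transcript AI506816 (-1.12), the chondroitin polymerising factor Chpf2 (-1.04), the NADPH oxidase chaperone Cybc1 (-0.70), the nuclear pore gene Nup35 (-0.63) and the chromatin gene Jade2 (-0.59). With sex in the model Arl5a was called (adjusted p = 0.0081), and the adjusted p was 0.0613 for Ublcp1, 0.0651 for Nmi, 0.0809 for AI506816, 0.0632 for Chpf2, 0.0852 for Cybc1, 0.0908 for Nup35 and 0.101 for Jade2. Chpf2 shares 41.9% of its 31-base words with its neighbour Smarcd3, and Ublcp1 shares 30.9% with other genes. Nup35 shares 43.0%, mainly with Gm4353 (39.5%), which was called in the opposite direction (3.01). Part of the counts of these genes could belong elsewhere.

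**Figure D3:**
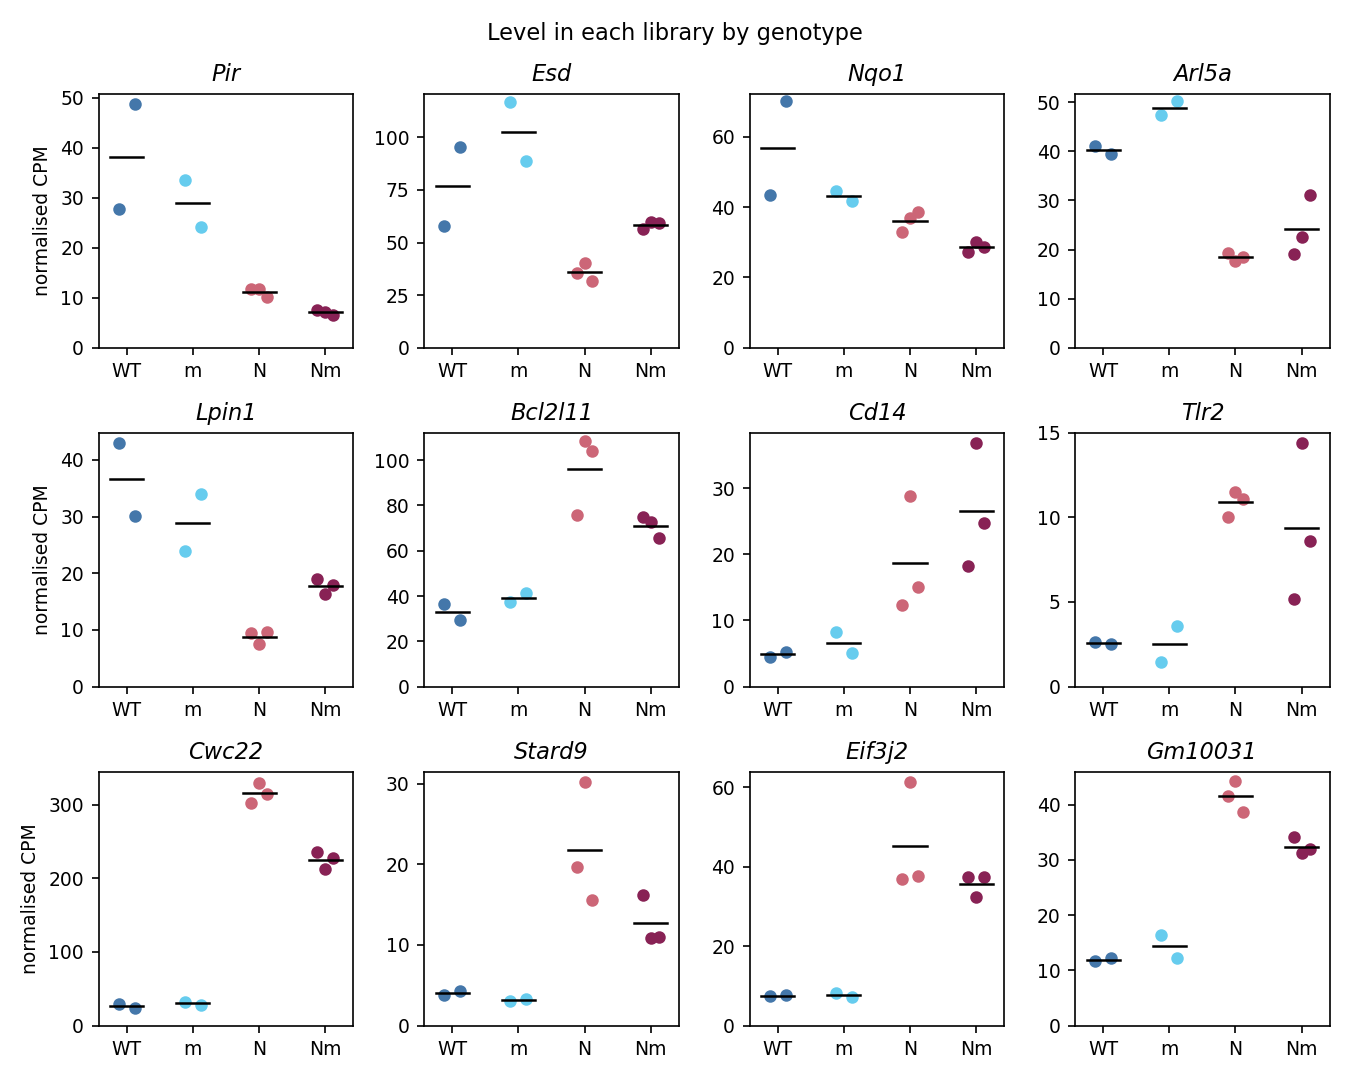
Points are the normalised CPM of single libraries and bars the mean of each genotype (WT wild type, m miR-144/451-/-, N Nrf2-/-, Nm double-null), for genes named in the text; each vertical axis starts at 0. Pir, Arl5a and Lpin1 lie lower in both Nrf2-absent genotypes, while Cwc22, Stard9, Eif3j2 and Gm10031 lie higher by several fold.

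A group of genes of innate immune sensing was among those that rose. Cd14, the co-receptor for lipopolysaccharide, had 4.49, 5.29, 8.25 and 5.05 normalised CPM with Nrf2, then 12.3, 28.8 and 15.0 in Nrf2-/- and 18.3, 36.8 and 24.7 in double-null cells, a coefficient of 1.97 ± 0.29 (adjusted p = 0.0153). Tlr2, the receptor for bacterial lipopeptides, ran from 1.46 to 3.58 with Nrf2 and from 5.2 to 14.4 without, with 1.98 ± 0.31 (adjusted p = 0.0168). Il1r2, the decoy receptor for interleukin-1, rose by 2.83 ± 0.42, from at most 2.85 CPM to at least 8.92. Library 2 was the highest of its genotype in all 3 genes in Nrf2-/- and in Cd14 and Tlr2 in double-null cells, where library 3 was the highest for Il1r2. Trem1, an amplifier of myeloid activation, rose by 1.88 ± 0.33 and Hcar2, a niacin and butyrate receptor, by 1.85 ± 0.32. Nfkbiz, the nuclear inhibitor protein induced by Toll-like receptor signals, rose by 1.70 ± 0.30. Lilr4b and Lilrb4a, related receptors of myeloid cells that lie next to each other on chromosome 10, rose by 1.79 ± 0.26 and 1.51 ± 0.20. They share 37.3% and 56.1% of their sequence words, mostly with each other, so their counts cannot be fully separated. Ptafr, the receptor for platelet-activating factor, and Tnip1, which restrains NF-kappaB signalling, rose too (1.44 ± 0.27 and 0.83 ± 0.13). With sex in the model Cd14 (adjusted p = 0.063), Tlr2 (0.0651), Trem1 (0.0754), Hcar2 (0.0848), Nfkbiz (0.0995), Lilr4b (0.0632), Ptafr (0.0852) and Tnip1 (0.0651) were not called, while Il1r2 (0.0321) and Lilrb4a (0.0264) were. Of the 10 fits that leave out 1 library each, Nfkbiz was called in 1, Trem1 in 2 and Hcar2 in 4. The theme was seen after the values and was not a list of its own.

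Markers of myeloid and lymphoid cells gave no call. Of 12 neutrophil markers none passed, 7 had coefficients above 0, and their summed level was 417.9 to 1101 normalised CPM with Nrf2 and 192.0 to 1405 without, all 3 double-null libraries lying at 1268 or above. Of 12 macrophage markers none passed, all had coefficients above 0 with a median of 0.78, and the sum was 152.4 to 273.0 with Nrf2 and 85.4 to 1120 without. Nrf2-/- library 3 held both the highest macrophage sum (1120) and the lowest neutrophil sum (192.0), and the macrophage median was 0.38 without that library and -0.48 among the male libraries alone. In that library Cd14 was 15.0 and Tlr2 11.1, within the range of the other Nrf2-/- libraries for each gene. Trem1 was 6.50 there, below the 11.3 and 20.5 of libraries 1 and 2. Library 2 had the highest neutrophil sum in Nrf2-/- (1362), and also the highest Cd14 (28.8), Tlr2 (11.5) and Trem1 (20.5). Hcar2 and Nfkbiz were highest in Nrf2-/- library 3 (22.0 and 107 CPM). Double-null library 2 had the lowest neutrophil sum of its genotype (1268) and the highest Cd14 (36.8), Tlr2 (14.4) and Trem1 (26.4). In bulk RNA fewer cells of a type and less RNA per cell cannot be told apart, and the part of these cells in the rise of Cd14, Tlr2 and the others was not tested.

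No lymphoid marker passed either. All 11 B cell markers had coefficients below 0, with a median of -1.04. At an unadjusted p under 0.05 there were 10 of them, beside 2683 of all 14110 genes, and none passed after adjustment. The sum of the B cell markers was 723.0 to 1639 normalised CPM with Nrf2 and 357.3 to 1121 without. The 10 T cell markers, all below 0, had a median of -0.24, and the 8 NK cell markers, 5 of them below 0, one of -0.09. Called genes known from lymphocytes, picked after their values were seen, lay on both sides. Ighv6-6, an immunoglobulin heavy chain segment, rose by 1.24 ± 0.23 without overlap (adjusted p = 0.0422). Among those that fell, Rag1, the recombinase of antigen receptor genes, had 105 and 82 counts in wild type, 1 and 15 in miR-144/451-/- and 0 to 8 in the Nrf2-absent libraries, so the high level was that of wild type. Lta, lymphotoxin alpha, fell by 2.06 ± 0.35 and Icosl, the ligand of the T cell co-stimulator Icos, by 1.32 ± 0.25, both with overlap between the arms. Ifi208, an interferon-inducible DNA sensor of the AIM2-like family, fell by 3.04 ± 0.31 (adjusted p = 0.00113), from 6.56, 10.4, 2.48 and 4.46 CPM to at most 0.918, without overlap. It shares 34.6% of its sequence words with relatives. With sex in the model Ighv6-6 (adjusted p = 0.101), Rag1 (0.0981) and Lta (0.0852) were not called, while Ifi208 (0.0108) and Icosl (0.0494) were. The part of B cell content in these changes was not tested.

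**Figure D4:**
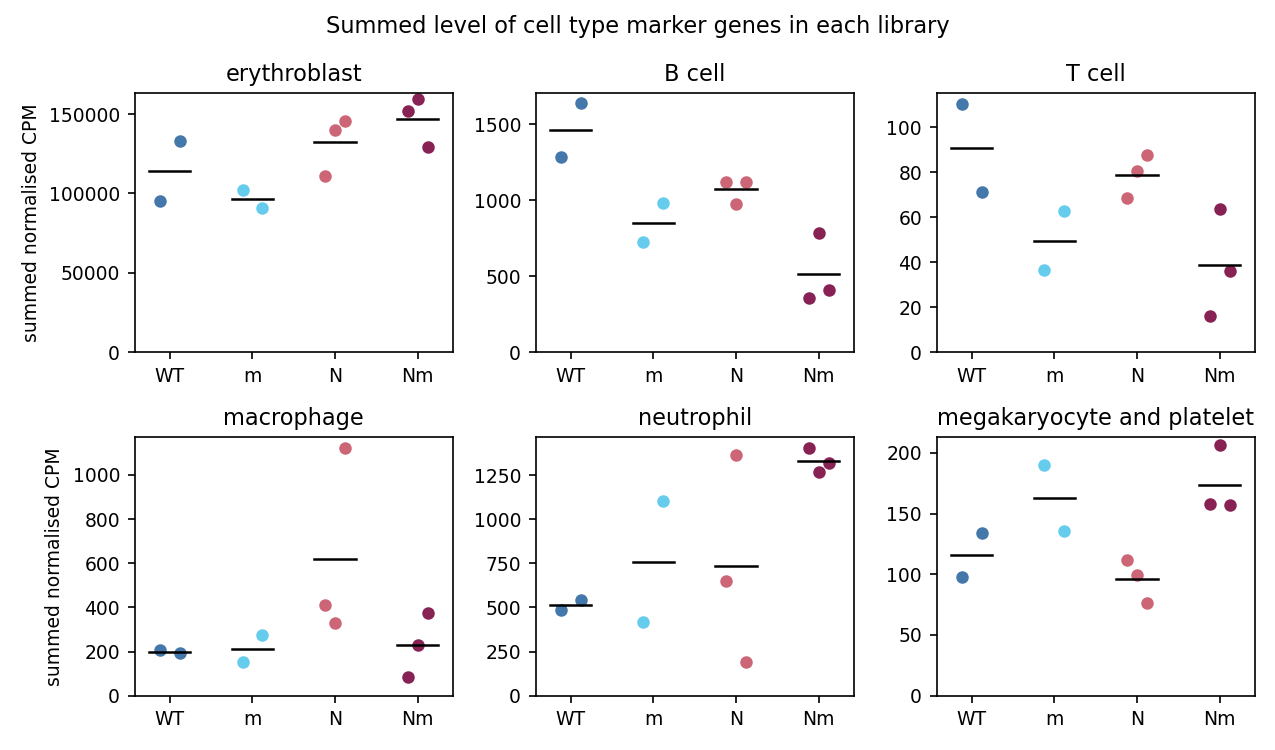
Points are the summed normalised CPM of the marker genes of a cell type in each library, bars the mean of each genotype (WT wild type, m miR-144/451-/-, N Nrf2-/-, Nm double-null), with every vertical axis starting at 0. The mean B cell sum is lowest in the double-null genotype, whose library 2 at 787.4 lies above miR-144/451-/- library 1 at 723.0, and 1 Nrf2-/- library stands apart at 1120 in the macrophage sum.

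Red cell programmes gave a single call. Of 10 erythroblast markers none passed, all had coefficients above 0, and the median was 0.31. None of 13 heme synthesis genes, 22 membrane genes, 20 erythroid transcription factors or 13 iron uptake genes passed, with medians of 0.14, 0.18, -0.0018 and 0.04. Without library scaling the medians for heme synthesis and iron uptake were -0.0024 and -0.12, and those for transcription factors and membrane genes -0.16 and 0.03, as the median of all genes shifted to -0.18. Gata1, Klf1 and Epor, at the head of the red cell programme, had coefficients of 0.02, 0.01 and 0.02. In the list of erythropoietin signalling and survival genes 1 of 17 rose: Bcl2l11, which encodes Bim, a promoter of apoptosis. It had 36.6 and 29.2 normalised CPM in the wild-type pair, 37.5 and 41.2 in miR-144/451-/-, 75.9, 108 and 104 in Nrf2-/-, and 74.8, 72.6 and 65.4 in double-null cells. The arms were well apart, with a coefficient of 1.19 ± 0.16 (adjusted p = 0.00841), and 1.07 (adjusted p = 0.012) with sex in the model.

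Of 20 genes of the unfolded protein and integrated stress responses none passed, 15 had coefficients above 0, and the median was 0.33. At an unadjusted p under 0.05 there were 7, beside 2683 of all 14110 genes. The summed level of the list was 3326 to 5661 normalised CPM with Nrf2 and 6508 to 8163 without, and did not overlap. Herpud1, a part of the machinery that clears misfolded proteins from the endoplasmic reticulum, had 123, 112, 212 and 84.0 with Nrf2 and 222 to 396 without, a coefficient of 1.18 ± 0.22 (adjusted p = 0.0509). Other genes tied to these pathways were outside the list but did rise: Slc38a2, an amino acid transporter induced by Atf4, by 0.81 ± 0.14, and Crebrf, which restrains the unfolded protein response, by 1.10 ± 0.20, both highest in double-null cells and both with overlap. With sex in the model their adjusted p was 0.0852 and 0.109. All 10 mitochondrially encoded genes tested had coefficients below 0 (median -0.33) and none passed. None of 32 proteasome, 29 oxidative phosphorylation, 18 glycolysis, 35 cell cycle, 16 p53 target, 13 heat shock or 21 autophagy genes passed, with medians between -0.16 and 0.20; the cell cycle median of 0.04 was -0.11 without library scaling. The same held for 27 interferon response genes and 14 interferon-inducible GTPases, with medians of -0.48 and -0.47. Within each background the medians of these 2 lists were -0.97 and -1.02 without the cluster and 0.16 and 0.05 with it. In the background with the cluster, Nrf2 loss and sex cannot be told apart. The difference between backgrounds was called for no member of either list.

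Genes of chromosome 2, which carries Nfe2l2, were called more often than genes elsewhere, by count. On chromosome 2, 11 of 1037 tested genes were called (1.061%), and 53 of 13053 elsewhere (0.406%). This was noticed after the values were seen. Single chromosomes came close: 3 of 321 genes were called on chromosome 18 (0.935%) and 9 of 1129 on chromosome 11 (0.797%). The chromosome 18 calls include Eif3j2 and Gm3650, which share sequence with chromosome 2 genes (below). Counted in tested genes from Nfe2l2, the called genes were Nmi, Arl5a and Dync1i2 at 78, 75 and 26 places before it, and Cwc22, Nup35, Gm13698, Gm13694, Rag1, Stard9, Ttbk2 and Bcl2l11 at 10, 18, 23, 24, 94, 205, 207 and 276 places after it. Within 50 genes on either side 5 of 100 were called.

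Cwc22, a splicing factor that also loads the exon junction complex, had the smallest p of all genes. It stood at 28.8 and 23.9 normalised CPM in the wild-type pair, 32.8 and 28.3 in miR-144/451-/-, 303, 330 and 315 in Nrf2-/-, and 235, 213 and 227 in double-null cells. The arms were far apart, with a coefficient of 3.22 ± 0.15 (adjusted p = 1.05e-06), and Cwc22 was the only gene called in all 21 other fits of the same data. Of its sequence words 22.4% also occur in the neighbour Gm13691. The predicted genes Gm13694 and Gm13698, whose words all occur in a further copy (Gm13693), had 22 to 41 and 7 to 12 counts without Nrf2 and at most 2 and 0 with it. Stard9, a kinesin of the centriole, rose by 2.22 ± 0.23 and Ttbk2, a tau tubulin kinase needed for cilia that lies 2 places away, by 1.67 ± 0.21 (adjusted p = 0.00113 and 0.00692). Ttbk2 shares 30.6% of its words, mainly with Cdan1, which itself had -0.09.

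**Figure D5:**
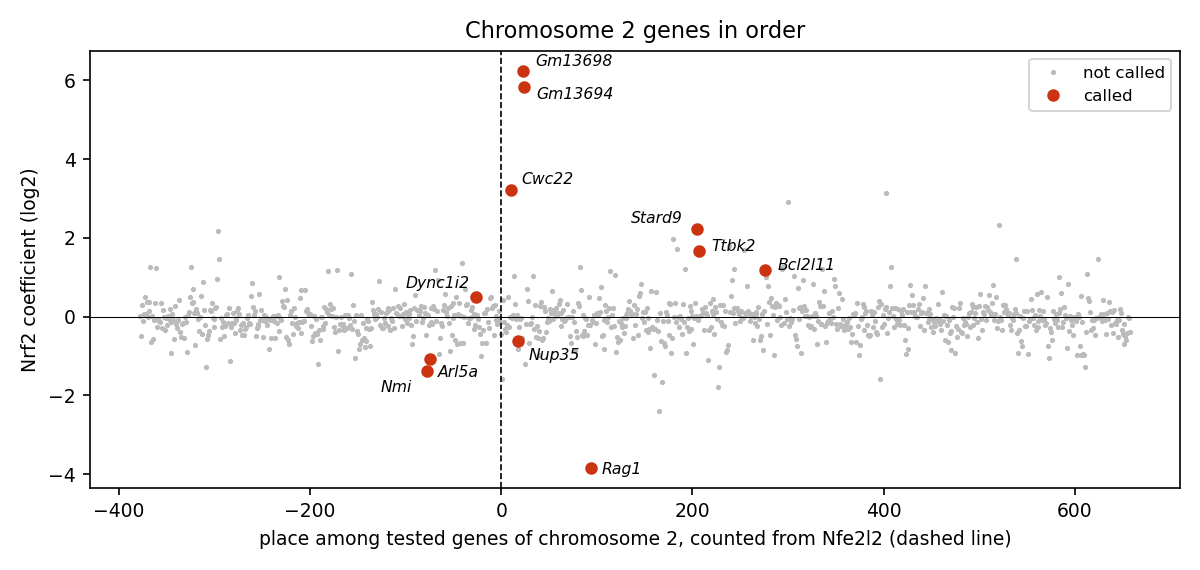
Each point is a tested gene of chromosome 2, placed by its order counted from Nfe2l2 (dashed line), with its Nrf2 coefficient on the log2 scale; red points were called. The called genes run from 78 places before to 276 places after Nfe2l2, with 7 above 0 and 4 below.

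A further 6 called genes lie on other chromosomes but share at least 30% of their sequence words with a chromosome 2 gene, a limit set after the values were seen, and all 6 rose. Eif3j2 (chromosome 18), 94.0% of whose words occur in the translation factor gene Eif3j1, had 7.53, 7.66, 8.10 and 7.33 normalised CPM with Nrf2, then 36.8, 61.3 and 37.6 in Nrf2-/- and 37.3, 32.3 and 37.4 in double-null cells. Its coefficient was 2.39 ± 0.17 (adjusted p = 6.46e-05), while Eif3j1 itself had -0.12 ± 0.11. Gm3650, next to Eif3j2 on chromosome 18, shares 95.7% of its words with Spg11, a gene of lysosome reformation, and rose from at most 3 counts in a library to 19 to 56. Spg11 and Eif3j1 are neighbours too, 231 and 230 places after Nfe2l2, so an adjacent pair rose where its counterpart pair did not pass.

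The others were Gm10031 of the kinase gene Csnk2a1 (93.3% of words, coefficient 1.48 ± 0.15), Gm4353 of Nup35 (87.6%, 3.01 ± 0.42), Gm7658 of Eif3m (61.5%, 1.54 ± 0.26) and Gm6257 of Dnajc17 (37.0%), which had at most 1 count in a library with Nrf2 and 4 to 15 without. Their chromosome 2 counterparts had coefficients of -0.25, -0.63, -0.12 and -0.47, of which Nup35 was called. Of all tested predicted genes and pseudogenes that share at least 50% of their words with a chromosome 2 gene, 4 of 36 were called (11.1%), compared with 4 of 568 with a counterpart elsewhere (0.704%). Together chromosome 2 genes and these copies made up 17 of the 64 calls and 9 of the 13 that kept their call in at least 20 of those 21 fits. The 4 others were Pir, Ifi208, Lilrb4a and the small RNA gene Gm23444. With chromosome 2 genes removed before scaling and fitting, 48 of 13073 genes were called. Whether DNA linked to the targeted Nfe2l2 allele has a part in this was not tested: the labels give C57BL/6 for every mouse.

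The Nrf2 effect differed between the 2 cluster backgrounds for few genes. An interaction was called for 9 genes (0.0638%), 4 positive and 5 negative, none of them among the 64. The averaged coefficient of such a gene mixes unlike effects and describes neither background. Their values are given in the closing section.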

How the data were processed

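Tools in the submitters' processing notes are HISAT2 2.1.0, Bowtie2 2.2.3, TopHat2 and CASAVA, and the build is mm9; the role of each is not given in the sources used here. The authors deposited 1 table of whole read counts per gene for all 10 libraries, with 53465 Ensembl gene IDs, 99.64% of which matched a symbol. Separate normalised files per library were not used.

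Counts were fitted with edgeR 4.0.16 (R 4.3.3): TMM scaling, filterByExpr by genotype, and a robust quasi-likelihood fit with terms for Nrf2 and for the cluster (7 residual degrees of freedom). The Nrf2 term was tested over 14110 genes with Benjamini-Hochberg adjustment at 0.05, and its standard error was taken as the coefficient over the square root of F. The interaction came from a fit by genotype. Between libraries of 13087827 to 15131036 counts, replicates differed beyond counting error. DESeq2 1.42.0, limma 3.58.1 (voom) and other settings were alternatives.

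Members and gene lists were chosen with earlier results of these data known. Named genes were up to 12 called genes per direction whose arms did not overlap, with the same sign in both backgrounds, a mean over libraries of 5 CPM or more and no predicted-gene name, then up to 4 called members of each list, and up to 6 interaction genes; all other genes named were picked after their values were seen. Shared sequence was counted as 31-base words of GENCODE M21 transcripts found in another gene. The reference is GRCm38 and the counts are on mm9, so from it only gene order, RefSeq promoter windows and these words were used. List entries for Ahsp, Hbb-b1 and Hbb-b2 found no ID in the table.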

Additional observations from a re-analysis of the deposited data

Results flagged for a closer look

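The Nrf2 effect with the cluster differed from that without it for 9 genes, by the interaction term in edgeR's quasi-likelihood fit by genotype; 629 genes had an unadjusted p under 0.05. Gm8730, a processed pseudogene (adjusted p = 4.95e-05), had 29.3 and 25.9 normalised CPM in the wild-type pair, 33.6 and 30.7 in miR-144/451-/-, 805, 900 and 602 in Nrf2-/- and 47.3, 36.8 and 42.0 in double-null cells. It was high in Nrf2-/- alone, and 62.8% of its sequence words occur in Rplp0, a ribosomal stalk gene of chromosome 5. Gm9625 (adjusted p = 0.000434), a pseudogene that shares 50.9% of its words with Gm8730, was high in the same 3 libraries, at 76.1 to 114 against at most 6.91 elsewhere.

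Fgfrl1, a decoy-like FGF receptor (adjusted p = 4.95e-05), was low in Nrf2-/- alone, at 4.10, 2.33 and 3.06 normalised CPM, where the other 7 libraries had 45.5 to 84.5. Idua, the lysosomal iduronidase that lies 2 tested genes from Fgfrl1 on chromosome 5, showed the same shape (adjusted p = 0.0397), at 1.88 to 2.75 against 10.1 to 15.6. Naip2 and Naip5, neighbouring sensors of bacterial proteins on chromosome 13 (adjusted p = 0.00923 and 0.0397), were low in miR-144/451-/- alone: Naip2 had 0.219 and 0.469 there and 6.12 to 11.7 elsewhere, and Naip5 had 0 counts there and 30 to 125 elsewhere. They share 32.8% and 53.1% of their words with relatives.

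AA465934 (adjusted p = 0.0179) was low in wild type alone, at 2.73 and 3.18 normalised CPM against 14.4 to 21.3. Cfap74 (adjusted p = 0.0216) and its neighbour 5830444B04Rik (adjusted p = 0.0405) had at most 1 count in any double-null library and 3 to 57 elsewhere. Except for Cfap74 and 5830444B04Rik, each of these 9 genes had 1 genotype that stood apart from the other 3. For all 9, whether the pattern goes with genotype or with the mice of a genotype cannot be told apart.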

How the results depend on the processing

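The count of genes called for the Nrf2 coefficient (64) was 1405 with no low count filter (27087 genes tested), 568 with DESeq2, 29 with the replicate number as a block, 20 with a term for sex, 3 in the male libraries alone and, in an alternative chosen after seeing the data, 21 without chromosome 2 genes and their copies that were called, a set chosen by the call itself. Leaving out each library gave 20 to 119. Of the 64 genes 59 were called by DESeq2, 56 by limma voom, 26 with the block and 1 (Cwc22) in the male libraries, where the Nrf2-present arm is miR-144/451-/- alone. The interaction count (9) was 232 with no filter, 24 with DESeq2, 3 with limma voom, 5 with the block, 2 with a term for sex and 3 to 12 leaving out each library. The cause of these shifts was not tested. Libraries with the same number correlated between -0.15 and 0.37 in their deviations, 1 of 13 pairs above 0.1, so the numbers were not taken as pairs. Over the 24 named genes, 401 of 537 values kept their call, 136 lost it and none changed sign; 12 of 781 list medians moved by more than 1 SD between libraries. The core motif with 1 more A was held by 0 of the 17 fallen genes with a window. Depth limits low genes such as Gm13698 and Gm6257, called on at most 12 and 15 counts in a library.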
